A study of Homo sapiens with 2 samples.

Results

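The regions described here are the TCF4 binding peaks at the immunoglobulin heavy chain locus on chromosome 14, which encodes the heavy chains of all antibody classes. They were chosen by name: every peak that the authors' deposited table assigned to IGHM (the constant region gene of IgM) or to IGH@ (an older symbol for the whole locus) was taken. There were 7 such peaks, 2 named IGHM and 5 named IGH@, among 661 distinct peaks. Sites of TCF4 on DNA were mapped by ChIP-seq (chromatin immunoprecipitation followed by sequencing) in the cell line TMD8, established from a diffuse large B cell lymphoma of activated B cell-like (ABC) subtype and without a copy number gain of TCF4. The 2 libraries were 1 TCF4 immunoprecipitate (ChIP) and 1 whole cell extract (input), both from cells that carried a tetracycline-inducible TCF4 construct and had received 60 ng/ml doxycycline for 24 hours. No library of uninduced cells was analysed here, so the peaks describe cells with raised TCF4. With 1 library of each kind, no value has a replicate error, and no difference below was checked against biological spread.

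TCF4 (also called E2-2) belongs to the E proteins, helix-loop-helix transcription factors that bind short E-box motifs. E proteins were first characterised through E boxes in immunoglobulin enhancers, and an older name of TCF4 is immunoglobulin transcription factor 2. The heavy chain locus has a few well-known enhancers. The intronic enhancer Eμ lies between the joining (J) segments and IGHM, and a 3′ regulatory region lies downstream of each of the alpha constant genes, IGHA1 and IGHA2. In B cells the intronic enhancer acts in assembly and early transcription of the heavy chain gene, and the 3′ regulatory regions act in class switching and in high-level antibody expression. Class switching deletes the DNA between the switch regions of 2 constant genes.

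Per its header, the authors' table keeps only the peaks at genes of a signature. All 7 peaks carried its Up mark, as did 545 of all 661 peaks. RNA was not measured in these libraries. Summed over the 661 peaks, the table counts 71988 reads in the ChIP library and 12661 in the input. The fold given below is the ratio of ChIP to input reads times a library scaling of 1.31, which was taken from the authors' normalized ratios. Its 95% interval (exact, Clopper-Pearson) covers counting error only, and PCR copies of a molecule count as separate reads in it. The peaks were called from these same libraries, so a fold above 1 is not an independent finding.

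The 7 peaks are numbered from the lowest coordinate (hg19, as the table gives it), and their intervals are shown because their spacing is the map of binding along the locus.
Peak 1, named IGH@: chr14:106087726-106089309, with its apex at 106087953.
Peak 2, named IGH@: chr14:106106801-106107992, with its apex at 106107750.
Peak 3, named IGHM: chr14:106131626-106133251, with its apex at 106132427.
Peak 4, named IGHM: chr14:106152851-106153901, with its apex at 106153593.
Peak 5, named IGH@: chr14:106204237-106206476, with its apex at 106205766.
Peak 6, named IGH@: chr14:106232376-106234244, with its apex at 106232860.
Peak 7, named IGH@: chr14:106328126-106328671, with its apex at 106328406.

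The peaks spanned 241 kb and together covered 10101 bp, or 4.19% of that span. Peaks 1 to 4 were evenly spread, with 19.8, 24.7 and 21.2 kb between neighbouring apices. The next apex lay 52.2 kb further on, peak 6 followed after 27.1 kb, and peak 7 stood alone, 95.5 kb beyond peak 6. The authors' distance to the gene end grew with the coordinate, at 35.7 kb for peak 1 and 275 kb for peak 7. Subtracting it from the peak midpoints gave 1 gene end to within 466 bp. All 7 peaks were therefore measured against a shared gene model whose end lies on the low-coordinate side, and all were classed as within it. The model is read toward lower coordinates, so peak 7 lies farthest upstream and peak 1 nearest the 3′ end.

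In the RefSeq gene table (GRCh38.p14, used for gene order only) the 11 constant region genes and pseudogenes run from low to high coordinates as IGHA2, IGHE, IGHG4, IGHG2, IGHGP, IGHA1, IGHEP1, IGHG1, IGHG3, IGHD and IGHM. No hg19 annotation was read here, so the overlap of a peak with a gene or an enhancer was not measured. The following placement rests on general knowledge of the hg19 map, as background. Peak 7 falls between the J segments and IGHM, the stretch that holds the intronic enhancer. Peak 4 falls between IGHGP and IGHA1, the stretch that holds the 3′ regulatory region of IGHA1. Peak 3 falls just beyond the 3′ side of the gamma pseudogene IGHGP, between IGHG2 and IGHGP. Peaks 1, 2, 5 and 6 fall at or just beyond the 3′ parts of IGHG4, IGHG2, IGHG1 and IGHG3, the constant genes of the IgG subclasses. On this map neither peak named IGHM lies at the IGHM gene.

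Peaks 3 and 4, named IGHM, lie between peaks named IGH@. The distance to a transcription start site is a spreadsheet reference error in all 7 lines and in no other line of the table. These 7 lines are also the only ones whose densities carry more than 10 decimals. No accession was listed for them. Their distance from a start site could therefore not be used, and the class "not promoter" that they carry rests on the authors' annotation alone.

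The highest folds were at the pair of peaks named IGHM. Peak 3 held 235 ChIP reads and 16 input reads, which gave 19.2-fold enrichment (95% interval 11.6 to 34.2). Peak 4 held 166 ChIP reads and 12 input reads, a fold of 18.1 (10.1 to 35.8). They ranked 14 and 18 among the 661 peaks by the authors' normalized log2 ratio. The neighbours of peak 3 in that order were a peak of SHB, an adaptor protein gene, with 19.7-fold (12.1 to 34.4), and one of NFATC1, a calcium-responsive transcription factor gene, with 18.4-fold (12.6 to 28.1), so this order is within counting error.

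Peak 1, nearest the 3′ end, held 161 ChIP reads and 20 input reads, a fold of 10.5 (6.60 to 17.7). Peak 2 held 244 ChIP reads and 40 input reads, a fold of 7.99 (5.70 to 11.5). These neighbours, 19.8 kb apart, had overlapping intervals.

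The most reads lay further upstream, at peaks 5 and 6. Peak 5 held 522 ChIP reads and 82 input reads, a fold of 8.34 (6.59 to 10.7). It ranked 5 in ChIP reads, and its input count was the largest of any peak in the table, where the next was 79 at a peak of SYK, a proximal B cell receptor kinase gene. Peak 6 held 321 ChIP reads and 48 input reads, a fold of 8.76 (6.45 to 12.1).

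Peak 7, on the side of the J segments, held 115 ChIP reads and 23 input reads, a fold of 6.55 (4.16 to 10.7). That was the lowest fold of the 7, at rank 307 of 661 by the normalized log2 ratio and close to the table's median fold of 6.36. It was also the narrowest of the 7, at 545 bp.

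**Figure D1:**
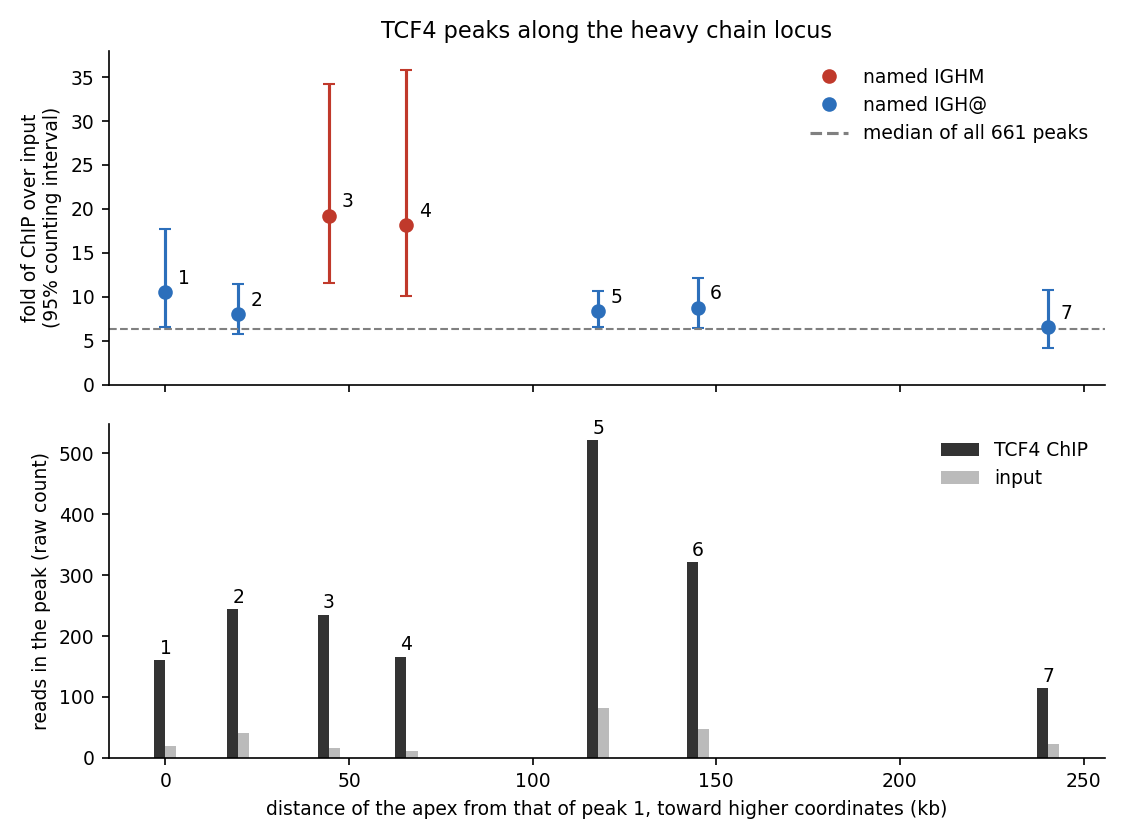
The upper panel plots the fold of ChIP over input at each peak (points, bars are 95% counting intervals) and the lower panel the raw ChIP and input reads, both against the distance in kb of the peak's apex from that of peak 1. Peaks 3 and 4 reach 19.2 and 18.1-fold, the other 5 lie between 6.55 and 10.5-fold, and peak 5 has the most reads, 522 ChIP and 82 input.

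All 7 peaks reached 5-fold, as did 68.8% of all 661 peaks. Peaks 1, 3 and 4 reached 10-fold, 3 of 7 beside 18.3% of all peaks. With the lower bound of the interval in place of the fold, 6 of 7 reached 5-fold (30.3% of all peaks) and 2 of 7 reached 10-fold (3.93% of all peaks). The median fold of the 7 was 8.76, from 6.55 to 19.2, beside 6.36 for all peaks with quartiles of 4.51 and 8.73. Since reads at the 7 peaks can be added up, the locus as a whole had 1764 ChIP reads and 241 input reads. Their fold was 9.59 (8.37 to 11.0), beside 7.45 over the whole table. That interval treats the 7 peaks as having 1 fold and leaves out the spread between them. These peaks were 1.06% of the table's peaks and held 2.45% of its ChIP reads and 1.90% of its input reads.

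Among the 7, the folds of 21 pairs of peaks were compared by the exact interval of their ratio, which compares reads in these 2 libraries and not conditions. In 8 pairs the 95% interval of the ratio left out 1, and each of the 8 set peak 3 or peak 4 against peak 2, 5, 6 or 7. The largest ratio was that of peak 3 over peak 7, 2.94 (1.42 to 6.18). When the intervals were widened for 21 comparisons (Bonferroni), that ratio ran from 0.984 to 9.23 and 0 pairs left out 1. The peaks named IGHM, added together, had a fold of 18.8 (12.8 to 28.6), and those named IGH@ had 8.38 (7.25 to 9.73). Both intervals leave out the spread between peaks. The grouping follows the names, but it was described with the folds already known.

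The peaks with the highest folds were low in input rather than high in ChIP. The authors' normalized read density (reads per peak length, scaled per library, in a unit that the header does not give) was 3.32 in the ChIP library at peak 3 and 3.63 at peak 4. Both values are near the table's median ChIP density of 3.25, at ranks 317 and 277. The input density was 0.173 at peak 3 and 0.200 at peak 4, against a table median of 0.559. Counted from the lowest of 661 input densities, these peaks came 10 and 12.

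Peak 1 had the lowest ChIP density of the 7, 2.34, at rank 568, and its input density was 0.222, which was 22 from the lowest. The other 4 peaks had more of both. Peak 5 had densities of 5.35 in the ChIP library and 0.642 in the input. Peak 2 had 4.70 in the ChIP library and 0.589 in the input. Peak 6 had 3.95 in the ChIP library and 0.451 in the input. Peak 7 had 4.85 in the ChIP library and 0.740 in the input, the highest input density of the 7. The ChIP densities of peaks 2, 5 and 7 lay above the table's upper quartile of 4.54.

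**Figure D2:**
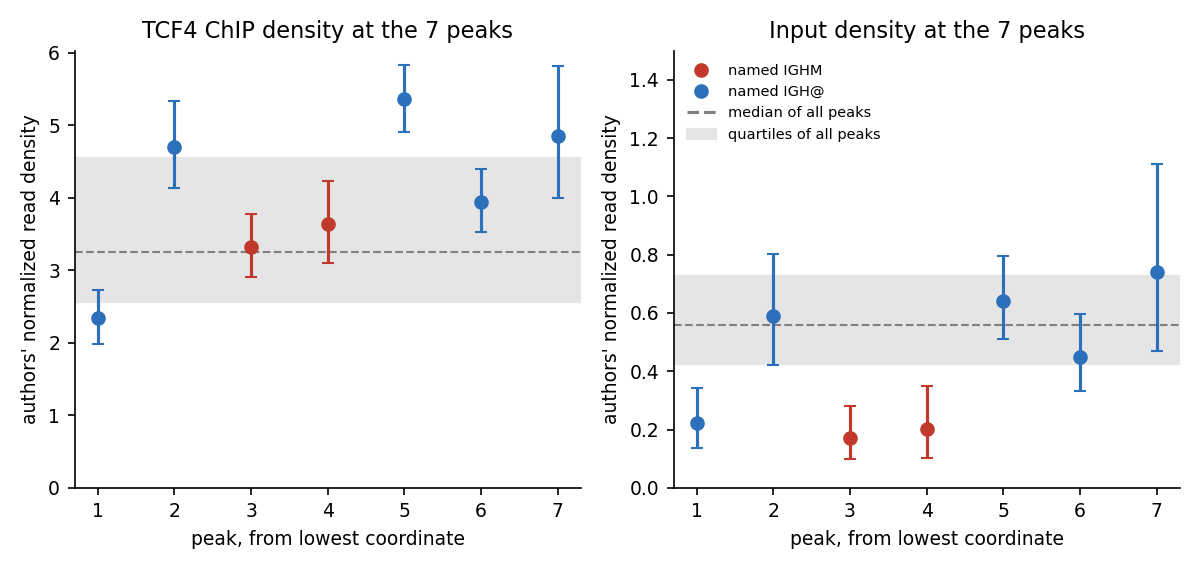
The authors' normalized read density at each of the 7 peaks, in the TCF4 ChIP library (left panel) and in the input library (right panel), with 95% Poisson counting intervals, over the quartiles (grey band) and the median (dashed line) of all 661 peaks. Peaks 1, 3 and 4 have input densities of 0.222, 0.173 and 0.200, below the lower quartile of 0.425, while the ChIP densities of peaks 3 and 4 lie inside the band.

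Input density differed between peaks by more than counting error allows. Of the 21 pairs, 12 had a ratio of input densities whose 95% interval left out 1, and 10 still did with the intervals widened for 21 comparisons. The 12 pairs were exactly those that set peak 1, 3 or 4 against peak 2, 5, 6 or 7. Peak 3 had 0.269 (0.147 to 0.463) of the input density of peak 5 and 0.233 (0.115 to 0.461) of that of peak 7. ChIP density went the same way with a smaller spread: it ran over 2.29-fold from lowest to highest among the 7, while input density ran over 4.29-fold. In ChIP density 15 of 21 pairs left out 1 at 95%, and 11 with widened intervals. Peak 3 had 0.620 (0.529 to 0.725) of the ChIP density of peak 5.

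Peaks 1, 3 and 4, low in input, were therefore also lower in ChIP reads per length than peaks 2, 5, 6 and 7. For peak 4 over peak 6 this was within counting error, at 0.920 (0.758 to 1.11). With widened intervals it was so too for peak 3 against peak 6 and peak 4 against peaks 2 and 7. The fold depends on which input is used. With the input raised to the table's median density wherever a peak had less, peak 3 fell to 5.94-fold, peak 4 to 6.49-fold and peak 1 to 4.18-fold, and 0 of the 7 reached 10-fold. With the pooled input density of the 7 peaks for all of them, an alternative added after seeing the data, peak 5 was highest at 12.8-fold and peak 7 followed at 11.6-fold. Peaks 3 and 4 then had 7.94 and 8.68-fold. A single input density for all peaks gives the order of their ChIP densities by construction. With the raised input, the values of peaks 1, 3 and 4 likewise restate their ChIP densities over 1 fixed input density. The gamma constant genes are duplicated copies that are near-identical over long stretches, and the sources used here do not say how reads that match several copies were placed. The part of shared reads and of copy number along the locus in these densities was not tested.

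**Figure D3:**
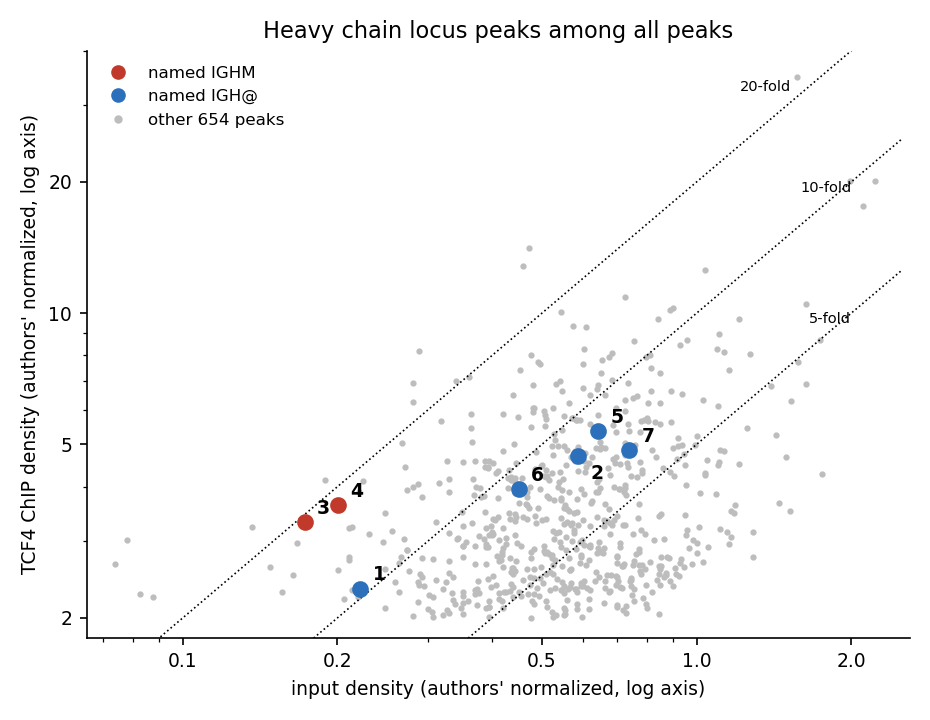
Input density (horizontal, log axis) against TCF4 ChIP density (vertical, log axis) for the 7 heavy chain locus peaks, numbered, and the other 654 peaks (grey), in the authors' normalized units, with dotted lines at 5, 10 and 20-fold. Peaks 3 and 4 lie at the left edge of the cloud at middling ChIP density, and peaks 2, 5, 6 and 7 lie within it.

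Over all 661 peaks, the fold went down with input density (Spearman's rho −0.59, Pearson's r −0.62 on log10 values) and up with ChIP density (rho 0.55, r 0.53). These are descriptions across sites that share libraries, and the fold is the ratio of the densities, so they are related by construction.

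The peaks at the heavy chain locus were wide. Their widths ran from 545 bp at peak 7 to 2239 bp at peak 5, with a median of 1583 bp, beside a median of 492 bp and quartiles of 400 and 717 bp for all peaks. Of the 7, 6 were over 1000 bp, a width that 75 of all 661 peaks (11.3%) passed. Peak 5 was the fourth widest of the table, peak 6 ranked 8, peak 3 ranked 15 and peak 1 ranked 17. Wider peaks had higher folds over the whole table (rho 0.62, r 0.55 on log10 values), while within the 7 peaks rho was 0.25. Of the 6 heavy chain peaks over 1000 bp, peaks 1, 2, 5 and 6 had folds inside the quartiles of the other 69 peaks of that width, and peaks 3 and 4 lay above them. Those quartiles were 7.09 and 11.6, around a median of 8.03. Peak 3 had the lowest input density of all peaks over 1000 bp, 0.173 beside 0.189 for the lowest of the other 69.

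The shape of the peaks varied. In peaks 3 and 7 the apex lay at 49.3% and 51.4% of the width, near the middle, where the table's median was 49.9% with quartiles of 42.1% and 58.1%. The apex of peak 1 lay at 14.3% of its width, 559 bp below its centre of gravity, and that of peak 6 at 25.9%, 320 bp below it. In peaks 2, 4 and 5 the apex lay toward the higher coordinate, at 79.7%, 70.7% and 68.3% of the width. Apart from peaks 3 and 7, the apices of the 7 lay outside the table's quartiles, which by definition leave as many of all peaks outside as inside. The local −log10 p-values in the authors' deposited table ran from 2.43 at peak 1 to 4.97 at peak 4. Their median was 2.86 beside 4.02 for all peaks. The −log10 p-value over the whole distribution was listed as infinite for all 7. The share of all peaks with that value is not given here, so it is not read as a trait of the 7.

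Few loci of the table were covered as densely. The 7 peaks fell within a window of 250 kb, and 7 other separate windows of that length held as many or more. Those were at NEDD4L, a ubiquitin ligase gene, with 10, at BCL2, the anti-apoptotic gene, with 9, at TRAK1 and SYK with 8 each, and at PMAIP1, MBP and BCL11A with 7 each. With the peaks named IGHM and IGH@ taken as 1 locus, 11 other genes had 7 or more peaks, the others being FOXP1, FAM49A, ALCAM and XPNPEP1, which were spread over longer stretches. The 1764 ChIP reads of the heavy chain locus were the most of any locus in the table, narrowly ahead of BCL2 with 1737 in 9 peaks and MBP with 1698 in 7. That place rests on taking both names as 1 locus, since the peaks named IGH@ alone held 1363. These sums move with the length called, which was 10101 bp here. Reads that match several copies of the gamma genes could also bear on the heavy chain sum and number of peaks. That was not tested.

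Among the 12 loci, the median fold of the heavy chain locus, 8.76, came after the 11.8 of MBP, a myelin protein gene, and before that of BCL2 with 7.89. The ranges overlapped: folds ran from 4.99 to 27.9 at MBP and from 5.28 to 9.36 at BCL2. The median width was larger at the heavy chain locus, 1583 bp, than at the other 11, where SYK had the largest with 990.5 bp. Input density ran over 4.29-fold within the heavy chain locus, over 5.29-fold at MBP, 4.00-fold at BCL2 and 1.97-fold at TRAK1. These spreads were not alike. At MBP and BCL2 the highest input densities, 1.74 and 2.22, were at their narrowest peaks, of 161 and 150 bp. The heavy chain locus had no peak under 545 bp, and its lowest input density, 0.173, was at a peak of 1625 bp.

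**Figure D4:**
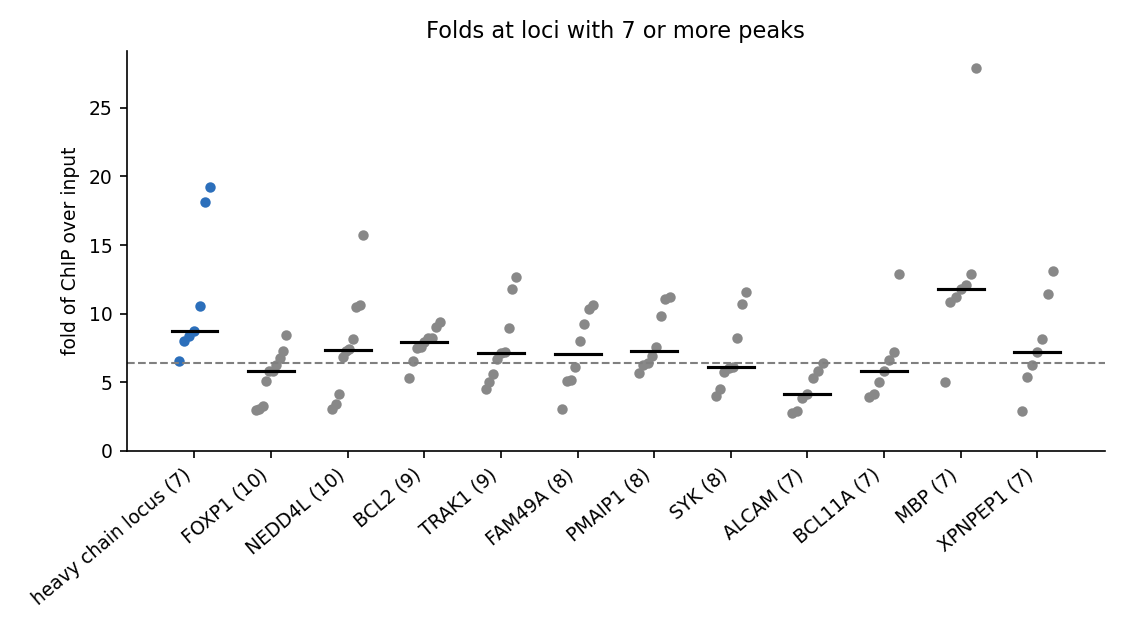
Fold of ChIP over input at each peak (points) of the heavy chain locus and of the 11 other loci with 7 or more peaks, with the number of peaks in parentheses, the median of each locus (bar) and the median of all 661 peaks (dashed line). The heavy chain locus has a median of 8.76 and a highest fold of 19.2, and MBP a median of 11.8 and a highest fold of 27.9.

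On chromosome 14 the table held 14 peaks, and the other 7 lay far away. The nearest, at ERH, was 36.3 Mb below peak 1, and 0 peaks lay beyond peak 7. Those 7 peaks had a median fold of 6.25, from 2.99 to 21.9, and a median width of 446 bp. Light chain genes (names starting with IGK or IGL) were named by 0 peaks. The partners of the immunoglobulin chains that were looked up (the joining chain, the surrogate light chain genes and the receptor signalling chains CD79A and CD79B among them) were also without a named peak, 0 of 7. The table lists peaks of signature genes only, so a gene it does not name cannot be called unbound.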

How the data were processed

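Per the submitters' processing notes, BWA, GATK and the hg19 build were used, with no role or version. The sources used here name no peak caller. A spike-in of chromatin and antibody went into the lysates, per the labels' protocols. The authors deposited whole-number read counts per peak for the ChIP and input (IC) libraries, their log2 ratio, a normalized log2 ratio, normalized read densities (a signal) and −log10 p-values, per the file headers. The table has 662 lines for 661 distinct peaks, and a repeated interval was counted once. The library scaling was the median of the normalized over the plain ratio. Folds, exact intervals, ranks, sliding windows of 250 kb and ratios between pairs of peaks were computed with Python 3.11.15, pandas 2.3.3 and SciPy 1.17.1. Interval coverage was tested on simulated data. With 1 library of each kind there was no test over samples.

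The heavy chain peaks, gene lists and comparisons were chosen with earlier results of these data known. Named genes were the members, the nearest peak on chromosome 14, the neighbours of the highest member in rank, loci with as many peaks, and the looked-up genes. Alternatives added or dropped library scaling, pseudocounts, input definitions, windows and a stricter score limit. SYK, as the holder of the next largest input count, was named after its value was seen. A further group of genes planned for the look-up is not reported here. DNA sequence under the peaks was not used here.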

Additional observations from a re-analysis of the deposited data

How the results depend on the processing

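Of 86 alternative values, 53 were classed as unchanged and 33 as moved. The limit was the counting interval for the fold of a single peak, and 1.5 times for ranks and counts. Medians were not held to the counting error of reads. The median fold of the peaks named IGHM alone, 18.7, was classed as unchanged from 8.76. Input raised to the table's median density gave 4.18, 5.94 and 6.49-fold at peaks 1, 3 and 4, 0 members at 10-fold, and 53.0% and 8.02% of all peaks at 5 and 10-fold with a median of 5.20. The pooled input density of the 7 peaks (added after seeing the data) gave 5.58, 7.94, 8.68, 12.8 and 11.6-fold at peaks 1, 3, 4, 5 and 7, and pooling over all peaks a median of 5.88. Leaving out the library scaling divides every fold by the same 1.31. Then 7 members reached 5-fold and 2 reached 10-fold, beside 48.0% and 7.41% of all peaks, whose median was 4.86. Peak 5 had 6.37-fold, below its interval. Adding 1 read left 15.3% of all peaks at 10-fold. With the lower bound of the interval these shares were 30.3% and 3.93%. Peaks at or above the median score had a median fold of 8.73, width of 619 bp, ChIP density of 4.21 and input density of 0.468, and all 7 members remained. Ranked by ChIP density, peaks 1, 3, 4, 5, 6 and 7 came 568, 317, 277, 110, 239 and 139, and by the lower bound peak 5 came 91. A 100 kb window held at most 6 peaks, and 4 of the heavy chain locus. The direction of enrichment was the same throughout, which the calling of the peaks fixes. No paired analysis was possible because each group is a single library. Input reads were fewest at peaks 4 and 3, with 12 and 16.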
